A study of Mus musculus with 7 samples.

Results

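The interferon regulatory factors described here are 7 transcription factor genes of the mouse, Irf1, Irf2, Irf3, Irf4, Irf5, Irf7 and Irf8, measured in naive CD8 T cells whose tyrosine kinase Lck had, per the labels, been switched off. The members were taken by gene name from the non-control spots of the arrays, and Irf9 was left out. They accounted for 7 of the 34797 gene names and 8 of the 55681 probes. Irf1 had 2 probes and each other member had 1. After a filter on dim probes 6 members remained among 18231 measured genes, and Irf4 did not. The WT group held 3 samples from mice heterozygous for OT-1, a transgenic T cell receptor for an ovalbumin peptide, on a Rag-/- background that rearranges no other receptor. The Lck-off group held 4 samples of the same OT-1 Rag-/- background that were also Lck-/- and had lived on a knocked-in, doxycycline-dependent Lck, which the labels say was removed by 7 days without the drug in the diet. All cells came from lymph nodes, were sorted as CD8b+ and CD44low without activation in culture, and gave total RNA for 1 single-colour array a sample. The sources used here do not give the age of the mice, the diet of the WT mice or the promoter that drove the knocked-in Lck. No Lck-/- mice kept on doxycycline were measured, so genotype, drug withdrawal and loss of Lck cannot be told apart. The samples are called biological replicates, with no word on whether each was 1 animal, so p-values measure the spread between these samples.

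Interferon regulatory factors share a DNA-binding domain that reads GAAA repeats in the promoters of interferons and of interferon-stimulated genes. IRF3 and IRF7 wait in the cytoplasm until kinases downstream of nucleic acid sensors phosphorylate them, and Irf7 is itself an interferon-stimulated gene. IRF1 is induced by interferon gamma and is opposed at shared sites by IRF2, whereas IRF4 follows antigen receptor signalling in T cells and IRF8 is best known from dendritic cells and other myeloid cells.

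On all arrays the labelled cell type was borne by its markers: 15 of 15 CD8 T cell markers were measured, with summed levels of 11.42 to 11.52, and Lat alone passed the test (0.27). A level is the log2 of a gene's intensity over the 75th percentile of its array, which lay between 208 and 243, and a difference is the Lck-off mean less the WT mean of such levels, in log2 units. Between 42.5% and 48.6% of probes were well above background and no spot was saturated. Precision is limited by the number of arrays. Lck RNA was lower but still bright in the group labelled Lck-off, at 8.62 ± 0.14 (SD, n = 4). The difference from WT was -0.37 (adjusted p = 0.0493 by limma), which leaves 77.2% of the WT signal. The labels do not say whether the probe lies in the disrupted part of Lck, and outside it the probe checks nothing, so the off state is taken from the labels and is not shown by this RNA value. Of all measured genes, 693 were higher and 834 lower in Lck-off, and the median difference was -0.0086.

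Among the measured members, Irf7 rose 3.68-fold in Lck-off cells, and the other 5 (Irf1, Irf2, Irf3, Irf5 and Irf8) did not pass the test. The count of 1 called member of 6 stands beside 8.38% of all genes called in either direction and 3.8% called higher. By limma 0 members were called lower, at an unadjusted p under 0.05 as well, beside 4.57% of all genes called lower. The median difference of the 6 measured members was 0.16, and 5 of them had a higher mean in Lck-off, against 48.3% of all genes.

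Irf7 encodes the factor that carries the later, amplifying phase of type I interferon production. Its single probe, shown because the one call among the members rests on it, lay on the minus strand at chr7:148450664-148451014 (mm9), beginning at base 796 of the transcript. Its 60 bases spanned 351 genome bases, with 291 bases spliced out between its parts. Whether it covers coding sequence was not annotated here, but 2 of its 3 reading frames held no stop codon. The longest stretch it shared with a probe of another member was 8 bases.
Irf7 probe: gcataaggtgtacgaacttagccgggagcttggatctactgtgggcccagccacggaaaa

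Irf7 levels were 2.17, 3.05 and 2.51 on the WT arrays and 4.48, 4.21, 4.44 and 4.70 on the Lck-off arrays. The lowest Lck-off array stood clear of the highest WT array, WT replicate 2, so the groups did not overlap. Such separation with higher Lck-off levels was found for 9.8% of all genes, and separation in either direction for 21.8%. Group means were 2.58 ± 0.44 (SD, n = 3) and 4.46 ± 0.20 (SD, n = 4). The difference was 1.88 (SE 0.21, 95% confidence interval 1.38 to 2.38, adjusted p = 0.00243 by limma), or 2.61-fold to 5.20-fold as an interval. In an exact permutation test, two-sided, 1 of 35 splits of the arrays gave a difference as large (p = 0.0286, the smallest this design allows). Irf7 ranked 112 among 18231 genes by rise, so that 0.609% of genes rose by more. A rise that passed the test and reached at least 2-fold was seen for 1.25% of genes. As unscaled probe intensity the WT arrays read 937, 1737 and 1340, and the Lck-off arrays read 4927, 3928, 5272 and 6058. In bulk RNA, more cells that express a gene and more RNA in each cell cannot be told apart.

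The rise of Irf7 kept its call in 7 of 7 repeats that left out 1 array (differences 1.68 to 2.12). The arrays lay in 2 rows of 1 slide, row 1 holding Lck-off replicates 2 and 3 with WT replicate 3, and row 2 the other arrays. The Irf7 difference was 1.91 with the row as a block (adjusted p = 0.0063 by limma), 1.81 within row 1 (adjusted p = 0.0689) and 1.98 within row 2 (adjusted p = 0.136). Plasmacytoid dendritic cells hold much Irf7 without stimulation. Of 8 markers of these cells, 5 were measured and 2 were higher in Lck-off, Tcf4 (0.68) and Ly6d. The Ly6d rise in the group means was at least 3.66-fold. For this bound, WT levels under the weakest signal measurable on their array were raised to it, and sampling error was left out. Ly6d was well above background on 0 of 3 WT and 4 of 4 Lck-off arrays. It passed the filter through the Lck-off arrays alone, so its call is not independent evidence. Runx2 was not well above background on any array. The summed level of the list was 8.13 to 8.23 in WT against 8.15 to 8.40 in Lck-off. The sum was set by Siglech, at 7.92 to 8.04 in WT against 7.95 to 8.24 in Lck-off, a bright probe in both groups, so that the sum cannot follow the dimmer markers. The 5 differences ran upward from -0.38 (Lair1), with a median of 0.10. The highest, Ly6d, is given only as the bound above. The part of these cells in the Irf7 result was not tested.

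**Figure D1:**
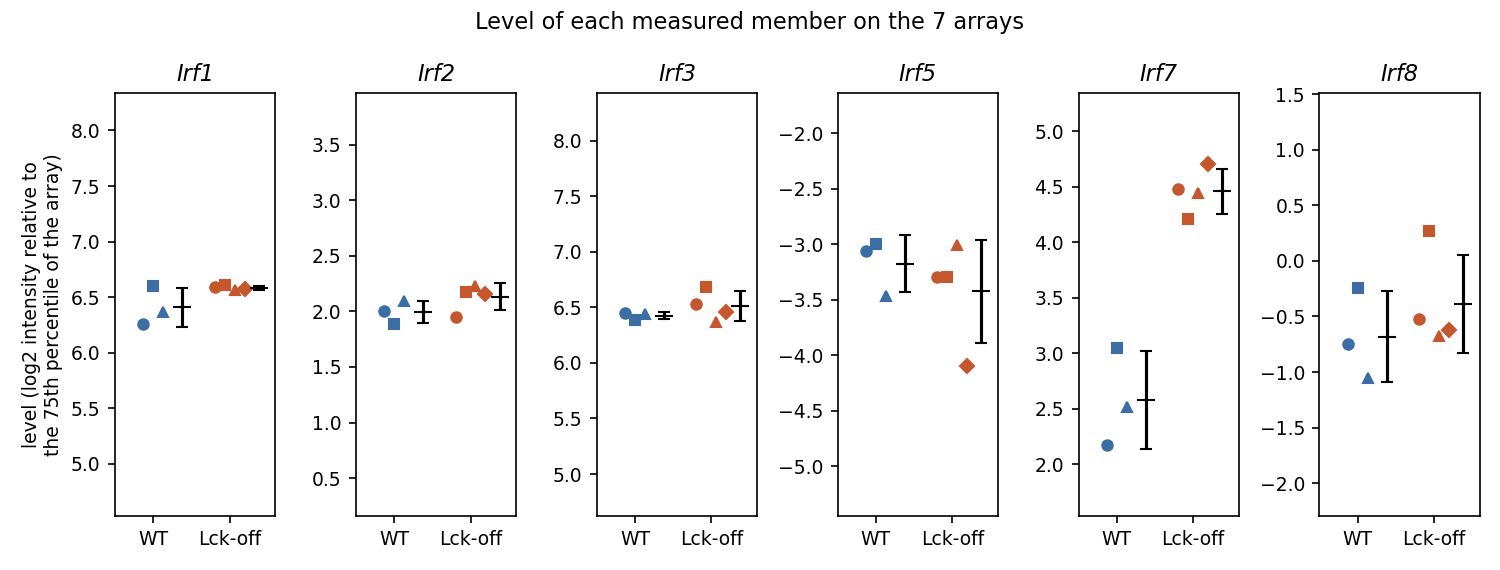
Level of each measured member (y axis, log2 intensity relative to the 75th percentile of the array) on 3 WT and 4 Lck-off arrays, with circles, squares, triangles and a diamond for replicates 1 to 4. Horizontal lines with bars give the group mean and SD; every panel spans the same number of log2 units, and the groups are apart in the Irf7 panel, where WT lies between 2.17 and 3.05 and Lck-off between 4.21 and 4.70.

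Irf1 encodes the activator of MHC class I, immunoproteasome and guanylate-binding protein genes downstream of interferon gamma. The probe that measured it lay at chr11:53590746-53590805 (mm9). Irf1 levels were 6.26, 6.60 and 6.36 on the WT arrays and 6.59, 6.61, 6.57 and 6.57 on the Lck-off arrays. The Lck-off arrays were nearly equal, WT replicate 2 lay among them, and the other WT arrays lay below. The difference was 0.18 (SE 0.092, 95% confidence interval -0.037 to 0.39, adjusted p = 0.327 by limma), which leaves room for a rise of up to 1.31-fold. It was 0.10 without WT replicate 1 and 0.27 without WT replicate 2. The second Irf1 probe, at chr11:53591817-53591876 (mm9), was well above background on 0 of 3 WT and 3 of 4 Lck-off arrays. Its levels of -4.12, -3.57 and -4.44 in WT against -4.32, -3.07, -3.69 and -2.89 in Lck-off overlapped. No fold or test is given for this probe, which passed the filter through the Lck-off arrays alone.

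Irf2 encodes a factor that binds the same sites as IRF1 and mostly represses. The Irf2 probe lay at chr8:47932486-47932545 (mm9). Irf2 levels were 2.00, 1.89 and 2.09 in WT against 1.95, 2.18, 2.23 and 2.16 in Lck-off. All Lck-off arrays but replicate 1 lay above every WT array. The difference was 0.14 (SE 0.093, 95% confidence interval -0.084 to 0.36, adjusted p = 0.486 by limma), and it was 0.083 without WT replicate 2.

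Irf3 encodes the factor that starts interferon beta transcription and is controlled mainly by phosphorylation of a protein already present. The Irf3 probe lay at chr7:52257700-52257759 (mm9). Irf3 levels were 6.45, 6.39 and 6.44 in WT against 6.53, 6.69, 6.36 and 6.46 in Lck-off. The lowest array of all was Lck-off replicate 3 and the highest was Lck-off replicate 2, so the WT values lay inside the Lck-off range. The difference was 0.082 (SE 0.089, 95% confidence interval -0.13 to 0.29, adjusted p = 0.690 by limma). Leaving out Lck-off replicate 2 gave 0.024, and leaving out replicate 3 gave 0.13.

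Irf5 encodes a factor that drives inflammatory cytokine genes in macrophages and dendritic cells. The Irf5 probe, at chr6:29486901-29486960 (mm9), was dim and stood well above background on 3 of 3 WT and 2 of 4 Lck-off arrays. Irf5 levels were -3.06, -2.99 and -3.46 in WT against -3.30, -3.29, -3.01 and -4.09 in Lck-off. The groups overlapped, with Lck-off replicate 4 the lowest. The difference was -0.25 (SE 0.26, 95% confidence interval -0.86 to 0.36, adjusted p = 0.671 by limma), and it took the opposite sign, at 0.31, within row 1 of the slide. Most of it came from 1 array: without Lck-off replicate 4 it was -0.027. It was -0.67 within row 2, which holds that array, and -0.048 in the deposited table.

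Irf4 encodes a factor that T cells make in proportion to the strength of antigen receptor signalling. The Irf4 probe, at chr13:30858532-30858591 (mm9), was well above background on 0 of 3 WT arrays and on 1 of 4 Lck-off arrays, replicate 3. Its levels, -5.11, -3.31 and -4.19 in WT against -4.42, -3.78, -3.46 and -3.87 in Lck-off, overlapped and lay near the limit of what the arrays measured. As unscaled intensities these were 6.01, 21.2 and 12.8 in WT against 10.3, 15.5, 22.1 and 15.9 in Lck-off. No fold could be given for Irf4, and a difference between the groups was not detectable at this signal.

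Irf8 encodes a partner of PU.1 needed for conventional dendritic cells of the cross-presenting kind, and is also made in lymphocytes. The Irf8 probe lay at chr8:123280324-123280383 (mm9). Irf8 levels were -0.75, -0.24 and -1.05 in WT against -0.52, 0.27, -0.68 and -0.62 in Lck-off. Lck-off replicate 2 stood above all other arrays, and the remaining Lck-off arrays lay within the WT range. The difference was 0.30 (SE 0.28, 95% confidence interval -0.36 to 0.95, adjusted p = 0.632 by limma), and it was 0.078 without Lck-off replicate 2, 0.11 without WT replicate 3 and 0.52 without WT replicate 2. It was 0.85 within row 1 of the slide, where that array lay, and -0.071 within row 2.

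Markers of other cells that express Irf8 were examined beside it. Of 14 markers of conventional dendritic cells, 7 were measured and 0 passed the test by limma (3 at an unadjusted p under 0.05), with a median difference of 1.07, and on no array did Cd209a, Clec10a or Clec9a stand well above background. The summed level of this list was 1.21, 2.34 and 1.06 in WT against 2.68, 3.75, 2.53 and 1.76 in Lck-off. Within each group, the array with the highest Irf8 level, replicate 2, also had the highest marker sum. The MHC class II gene H2-Ab1 was likewise highest on replicate 2 of each group, at 0.64 in WT against 2.25 in Lck-off. So were H2-Eb1 (2.29 in Lck-off), Cd74 (1.41) and H2-Aa (-1.09). Within a group, Flt3 was instead highest on Lck-off replicate 3 (-2.68), Cd83 on WT replicate 1 (-1.93) and Zbtb46 on WT replicate 3 (-3.30). H2-Eb1, H2-Ab1 and Cd74 were the brightest of the list, so that the sum cannot follow the dimmer markers. The 7 differences ran from -0.69 (Flt3) to 1.40 (H2-Ab1). Of 16 macrophage, monocyte and neutrophil markers 7 were measured and 1 passed the test as higher (C1qb, 0.59). All 7 had a higher mean in Lck-off, with differences of 0.20 (Csf1r) to 1.75 (C1qc), a median of 0.59 and 4 at an unadjusted p under 0.05. C1qa and C1qc, both among these 4, were well above background on 1 of 3 WT and 4 of 4 Lck-off arrays. They would have passed the filter on the Lck-off arrays alone, and their differences rest on WT levels near the limit of measurement. Cd163 was not well above background on any array, and the sums were 2.26 to 3.04 in WT against 2.77 to 3.08 in Lck-off. The part of these cells in the Irf8 and Irf5 values was not tested. Of 10 B cell markers, 4 were measured and 0 passed the test by limma (1 at an unadjusted p under 0.05, Cd22, at 0.24). Blk, Ebf1, Ms4a1 and Pax5 were well above background on none of the arrays. The sums were 3.66 to 3.88 in WT against 3.63 to 3.92 in Lck-off. They were set by Cd79b, at 3.55 to 3.79 in WT against 3.52 to 3.82 in Lck-off, and cannot follow the dimmer markers. Of 9 NK cell markers on the array, 4 were measured, and Gzma was higher (2.77) and Nkg7 lower (-0.78), both also genes of CD8 T cells.

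**Figure D2:**
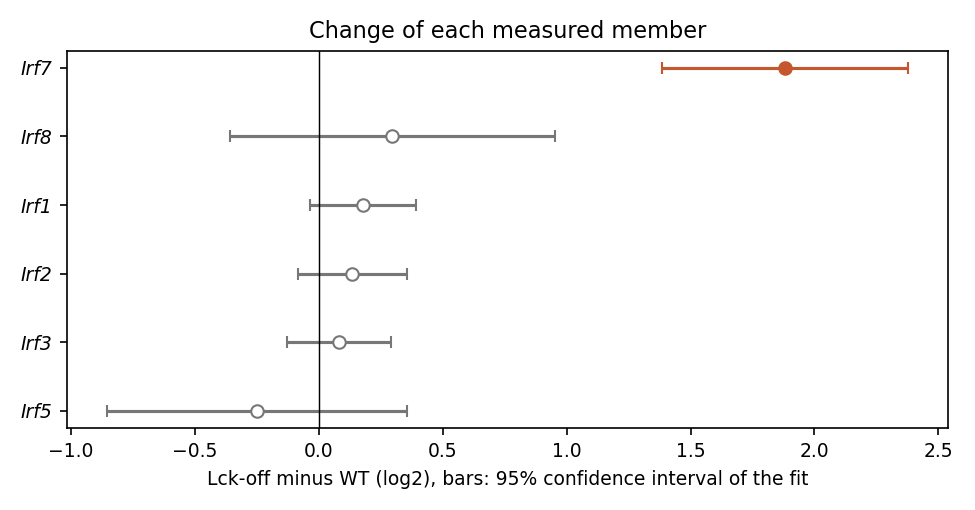
Difference between Lck-off and WT (x axis, log2) for the 6 measured members, with bars for the 95% confidence interval of the limma fit; the filled point passed an adjusted p of 0.05. The Irf7 interval runs from 1.38 to 2.38, and the intervals of the other 5 members include 0.

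By size of difference the members ran Irf7, Irf8, Irf1, Irf2, Irf3 and Irf5. Differences of neighbours in this order were compared by an exact permutation test, two-sided, of the ratio of their levels within an array, over 5 pairs. Irf7 exceeded Irf8 by 1.58, which did not pass (exact permutation p = 0.0571, adjusted p = 0.286). The other neighbouring pairs did not pass either (exact permutation p = 0.371 to 0.771). The smallest p this exact permutation test can give is 0.0286, before adjustment over the 5 pairs. A single differing pair therefore could not pass after adjustment, and the lack of a call does not show that neighbours were alike. In a comparison added after the values were seen, Irf7 was set against each other member in the same way. Irf7 was taken as the member already called, and all 5 comparisons share its values, so their p-values are no further support. Its difference exceeded that of Irf1 by 1.70, Irf2 by 1.75, Irf3 by 1.80 and Irf5 by 2.13 (each exact permutation p = 0.0286, adjusted over 5 pairs p = 0.0357). Against Irf8 the adjusted value was 0.0571 by the same exact permutation test. The ratio of Irf7 to each of the 5 was higher on every Lck-off array than on every WT array.

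The sequence just upstream of each member's start site was searched for motifs of the kind through which interferon signalling acts. RefSeq promoter windows (GRCm38.p6) were matched for all 7 members, and 250 bases before the start were searched on both strands for an ISRE-like motif (GAAA, any 2 bases, GAAA), a STAT motif of the GAS kind, TTCNNNGAA, and a TATA box, TATAAAA. These letters occur in 2.98%, 7.02% and 4.98% of 32851 such windows. Irf1 and Irf8 each had a second window, at a start farther downstream, and it held no match. For these members the window farthest upstream is the one described. The windows of the 4 members with a match are shown with the matched letters in capitals, to set the Irf7 window beside those of members that did not pass the test. They lie at chr7:141266425-141266674 on the minus strand for Irf7, and on the plus strand at chr11:53769764-53770013 for Irf1, chr8:46739495-46739744 for Irf2 and chr8:120736108-120736357 for Irf8.
Irf7: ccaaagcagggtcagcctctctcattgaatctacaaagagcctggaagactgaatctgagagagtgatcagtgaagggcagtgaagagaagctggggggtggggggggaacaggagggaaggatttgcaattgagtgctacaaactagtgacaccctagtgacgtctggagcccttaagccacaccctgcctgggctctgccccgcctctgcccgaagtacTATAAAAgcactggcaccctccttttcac
Irf1: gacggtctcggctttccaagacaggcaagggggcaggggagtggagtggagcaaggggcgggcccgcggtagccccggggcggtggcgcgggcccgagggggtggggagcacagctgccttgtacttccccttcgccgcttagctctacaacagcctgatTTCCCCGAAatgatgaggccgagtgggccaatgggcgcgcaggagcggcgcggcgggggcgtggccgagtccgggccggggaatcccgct
Irf2: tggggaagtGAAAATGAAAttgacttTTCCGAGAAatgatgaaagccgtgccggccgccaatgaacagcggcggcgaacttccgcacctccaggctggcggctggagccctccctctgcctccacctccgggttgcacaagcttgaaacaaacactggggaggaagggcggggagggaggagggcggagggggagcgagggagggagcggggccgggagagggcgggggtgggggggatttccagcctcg
Irf8: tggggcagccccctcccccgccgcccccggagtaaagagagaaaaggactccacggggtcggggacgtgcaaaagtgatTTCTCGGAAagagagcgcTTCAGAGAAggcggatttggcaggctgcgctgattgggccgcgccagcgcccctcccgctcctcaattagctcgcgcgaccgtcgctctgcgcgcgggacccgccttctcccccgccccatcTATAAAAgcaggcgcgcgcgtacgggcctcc

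The Irf7 window held a TATA box, 29 to 23 bases before the start, and neither other motif. The Irf1 window held a GAS-like match, TTCCCCGAA, 90 to 82 bases before the start. The Irf2 window held the only ISRE-like match among the members, GAAAATGAAA, 241 to 232 bases before the start, and a GAS-like match at 224 to 216. The Irf8 window held GAS-like matches at 171 to 163 and 153 to 145 and a TATA box at 31 to 25. The member that rose had no ISRE-like or GAS-like letters in this window, and 3 members that did not pass the test had at least 1. A match is a description of letters and not of binding.

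Upstream of the factors, 3 of 19 measured genes for sensors, adaptors and kinases that activate them rose and 1 fell, with a median difference of 0.038. Tlr7, the endosomal sensor of single-stranded RNA, rose by 1.08 (SE 0.099, adjusted p = 0.00118 by limma), from 0.86, 0.99 and 1.10 in WT to 1.97, 1.97, 2.23 and 2.10 in Lck-off. Ifih1 and Ddx58, the cytosolic RNA sensors MDA5 and RIG-I, rose by 1.75 and 0.65. Tbkbp1, which encodes an adaptor of the kinase TBK1, fell by 0.98 (adjusted p = 0.0396 by limma), a call lost in 6 of 7 repeats that left out 1 array. The other 15 genes of the list did not pass the test.

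Of 17 measured partners and cofactors of the factors, 2 rose, with a median difference of -0.0019. One of them was Stat2, a subunit of the interferon-activated complex ISGF3, with a difference of 0.96. Of 12 genes that restrain or turn over IRF activation, 2 rose and 1 fell, with a median of 0.20. Oasl1, which represses translation of Irf7 mRNA, rose by 2.69 (SE 0.26, adjusted p = 0.00139 by limma), from 1.92, 3.06 and 2.33 in WT to 4.85, 5.23, 5.14 and 5.28 in Lck-off. Oasl1 thus rose beside Irf7, and WT replicate 2 was again the highest WT array. Fbxw7, the substrate receptor of a ubiquitin ligase, rose by 0.35, and Sike1, an inhibitor of TBK1 and its relative IKK-epsilon, fell by 0.48, and both calls were lost in 6 of 7 repeats that left out 1 array.

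Interferon genes themselves, most of which IRF3 and IRF7 can drive, gave no call. Of 15 on the array, 8 were measured, 0 passed the test by limma (0 also at an unadjusted p under 0.05), and the median difference was -0.052. On no array did Ifnb1 or 5 others (Ifna4, Ifna7, Ifna11, Ifna13 and Ifne) stand well above background. Interferon alpha genes are near copies of each other, so their probes may share signal.

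Of 15 targets of IRF3 and IRF7, 14 rose and 0 fell, with a median difference of 2.22. The list was drawn up with the interferon response of these samples known, and its count is not independent evidence of a direction. By smallest p the first were Isg20, an RNA exonuclease (2.15, adjusted p = 0.000682 by limma), Ifit2, which binds viral RNA (1.89), Ifi44 (at least 21.6-fold) and Usp18, the protease that removes ISG15 (3.50). The Ifi44 fold is a bound on the group means, set as for Ly6d and without sampling error. On no WT array did Ifi44 stand well above background. It passed the filter through the Lck-off arrays alone, so its place among the 14 is not independent evidence. Ccl5, a chemokine gene that memory T cells also express, named after its value was seen, was the 1 target that did not pass the test (-0.39, SE 0.38). Its Lck-off levels were 1.70, 3.33, 1.95 and 1.96, and without replicate 2, the high one, it was called lower (-0.76, adjusted p = 0.0281 by limma), which gave 13 higher and 1 lower call in the list. In the other repeats that left out 1 array Ccl5 was not called (adjusted p = 0.651 to 0.838 by limma). Of the 14 that rose, 12 had a RefSeq window and 6 of those held the ISRE-like motif that the Irf7 window lacked.

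Array by array, the targets ran beside Irf7. Their median level was 0.93, 2.33 and 1.55 in WT against 3.34, 3.33, 3.43 and 3.66 in Lck-off. The gene in the middle differed between arrays, so this median is not the course of 1 gene. On Lck-off replicate 2 it was Ccl5, the target that did not pass the test. WT replicate 2, highest of the WT arrays for Irf7, was also the highest WT array for 14 of the 15 targets, against 29.5% of all genes. Lck-off replicate 4 was highest both for Irf7 and for the median of the targets.

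**Figure D3:**
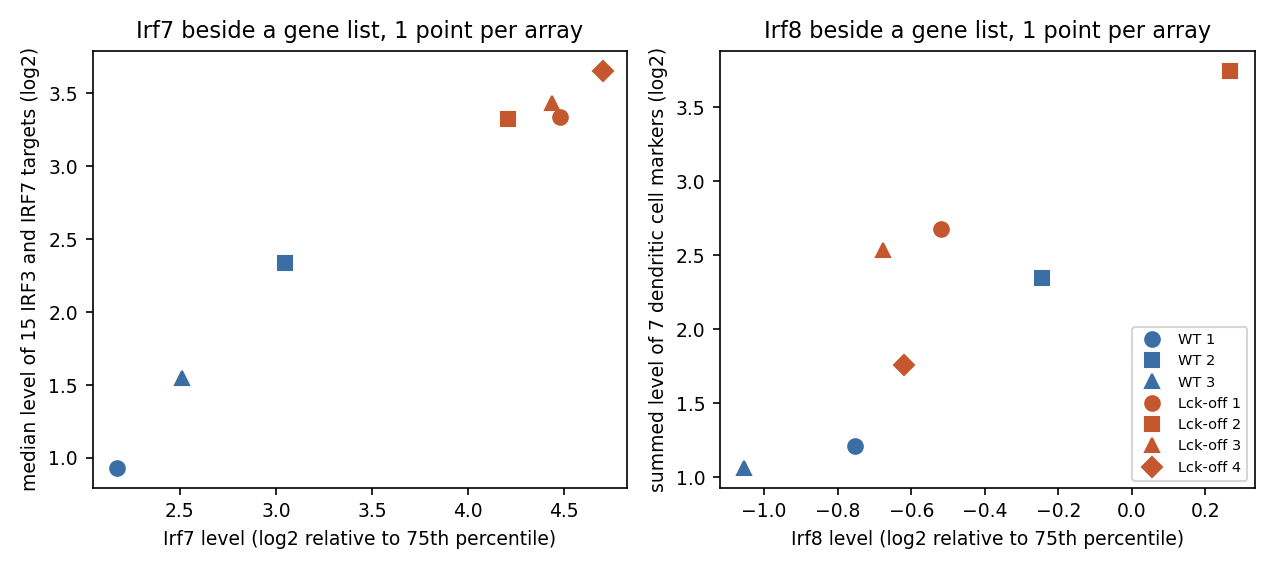
Left, level of Irf7 (x axis, log2 relative to the 75th percentile) and median level of 15 IRF3 and IRF7 targets (y axis, log2); right, level of Irf8 (x axis) and summed level of 7 conventional dendritic cell markers (y axis, log2), 1 point for each array. Blue points are WT and orange points Lck-off; on the left WT replicate 2, at 3.05 and 2.33, lies nearest to the Lck-off arrays, and on the right Lck-off replicate 2, at 0.27 and 3.75, lies apart.

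Of 17 measured IRF1 targets, 8 rose and 0 fell, with a median difference of 0.43, whereas Irf1 itself did not pass the test. Socs1, the inhibitor of JAK kinases, went from 2.85, 3.22 and 2.99 in WT to 4.22, 4.31, 4.24 and 4.24 in Lck-off (difference 1.24, SE 0.097, adjusted p = 0.000709 by limma). Casp1, the inflammasome protease, rose by 2.40, Cd274, which encodes PD-L1, by 1.17 and the guanylate-binding protein gene Gbp2 by 1.06. The smaller rises of Psmb8 and Tap2, an immunoproteasome subunit and a peptide transporter of antigen presentation, at 0.33 and 0.31, were lost in 7 of 7 repeats that left out 1 array. Of 8 measured targets of IRF4 and IRF8, 2 rose, with a median of 0.57. They were Prdm1, which encodes Blimp-1 (1.34), and the lysosomal protease gene Ctss (0.69). Prdm1 was dim in WT, at -3.53, -3.11 and -2.76, and well above background on 2 of 3 WT arrays. Its difference ran from 0.45 to 1.53 over the processing alternatives given below. Gzmb, which also enters the median, was well above background on 0 of 3 WT arrays. Cybb, Il10, Il12b and Il21 were well above background on none of the arrays.

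**Figure D4:**
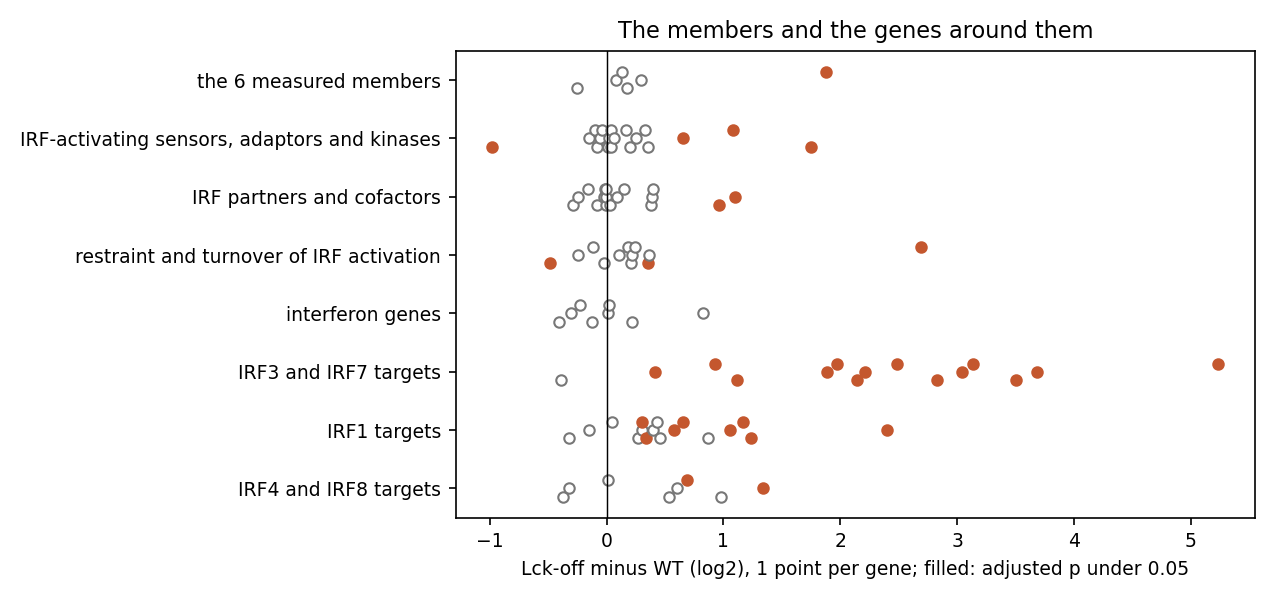
Difference between Lck-off and WT (x axis, log2) of the 6 measured members and of 7 lists of genes around them, 1 point for each measured gene, filled where the adjusted p was under 0.05. The IRF3 and IRF7 targets hold 14 filled points to the right of 0, and the interferon genes hold 0.

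The measured genes whose array-by-array pattern was nearest to that of Irf7, by root mean square distance over 7 arrays after each gene's mean was subtracted, were Ifit2 (0.131), Dhx58 (0.151), Ifih1 (0.158), Isg20 (0.159) and Ccrl2 (0.161).

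Genes near the members on the chromosome were not called more often than genes at large by count. Within 500 kb of the 7 members lay 147 other measured genes, of which 8 were called, or 5.44%, beside the 8.38% of all genes. Near Irf7, 2 of 35 genes were called, and both were lower: Tspan4 by -1.37 and Athl1 by -0.32. Near Irf1, 2 of 24 were called higher, Pdlim4 (1.10) and Slc22a5 (0.34). Near Irf3, 4 of 49 were called, Ptov1 (0.60) and Dkkl1 (0.66) higher and Fcgrt (-0.75) and Dhdh (-1.01) lower. Near Irf2, Irf4, Irf5 and Irf8, with 7, 3, 11 and 18 measured genes, 0 were called by limma and 2 had an unadjusted p under 0.05. These neighbours were named after their values were seen.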

How the data were processed

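The authors' processed intensity values came, per the file headers, from Feature Extraction 10.7.3.1, with background subtraction and spatial detrending array by array. Probe positions are on mm9, and the spot flags come from the same software. Mean and local background intensities, deposited beside them, were used for a normexp alternative (offset 50). The authors also deposited a table of log2 values (the scale was inferred from its range), used as an alternative. Limma is named in the submitters' processing notes, but the sources used here do not give the steps.

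Log2 processed intensities were set relative to each array's 75th percentile with control spots left out. Non-uniform spots were dropped and replicate spots averaged. A probe was kept (25578 of 55681) if 3 or more of the 7 arrays showed it well above background. The brightest kept probe measured a gene name. Groups were compared with limma 3.58.1 (R 4.3.3 with package data.table, version 1.17.8; lmFit and eBayes, two-sided), with Benjamini-Hochberg adjustment over all 18231 genes and a threshold of 0.05. Single values were tested by exact permutation over 35 splits. Recovery was checked in simulated data with 18231 genes and the spread of these arrays. Of genes raised by 0.5, 1, 2 and 3 on the log2 scale, 38%, 80%, 92% and 98% were called. Far fewer genes were changed there than the 1527 called here, and only upward, so these shares need not hold for the real comparison. The members and gene lists were chosen with earlier results of these data known. Named genes were the members, up to 4 called genes of smallest p in each direction of a list, and the 5 genes nearest to Irf7 in pattern. Markers not well above background on any array were named too. The measured markers named with values, Psmb8, Tap2, Ccl5, Ifng and Gzmb were named after their values were seen. So were the undetected interferon and target genes and the chromosomal neighbours. Some genes that the rule names are not reported here.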

Additional observations from a re-analysis of the deposited data

Results flagged for a closer look

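Irf8 in the Lck-off group had 1 array far from the others. Lck-off replicate 2 read 0.27, and the nearest other Lck-off array, replicate 1, read -0.52. The gap took up 0.833 of the whole range of the group, just above the critical value for 4 samples. It was 1 of 28 checks, 8 of them on probes of the members and the others on gene lists and Lck, and chance gives such a gap in about 5% of groups. The same array had the highest summed level of conventional dendritic cell markers (3.75); their part in the Irf8 value was not tested.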

How the results depend on the processing

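Each result was recomputed under 21 alternatives, 7 of which left out 1 array. Irf1, Irf2 and Irf3 kept their direction and missed the threshold under all 21. Irf5, which could not be fitted with a filter on all 7 arrays, turned to 0.31 within slide row 1, and Irf8 took the opposite sign at -0.071 within slide row 2. The Irf7 difference lost its call with the replicate block (1.80, adjusted p = 0.0516 by limma), within row 1 (1.81) and within row 2 (1.98), so that 0 members were called and 0 called higher under each of these. Its unadjusted p was 0.00113, 0.000681 and 0.00448 in these fits by limma. Row 1 holds 1 WT array, which is assumed to vary like the Lck-off arrays. All 3 fits use fewer arrays: the block pairs the numbers of WT and Lck-off and leaves Lck-off replicate 4 out. Same-numbered arrays did not pair (r of their deviations across genes 0.11, 0.049 and -0.0083), so the block is no measure of a weaker effect.

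With the replicate block, 374 of all genes were called, 2 sensors and kinases, 0 partners, 1 restraint gene, 9 IRF3 and IRF7 targets, 4 IRF1 targets and 1 IRF4 and IRF8 target. Within row 1 these counts were 105, 0, 0, 1, 6, 0 and 0, and within row 2 all were 0 by limma (2711 genes at an unadjusted p under 0.05). Median scaling called 918 genes, 1 restraint gene and 5 IRF1 targets. Without the filter on dim probes 717 genes, 1 restraint gene and 1 IRF4 and IRF8 target were called, and the filter on all 7 arrays also called 1 of the last. Leaving out 1 array gave 960 to 1405 genes and 1 to 3 restraint genes; the lowest counts of genes came without WT replicate 2 (960), Lck-off replicate 3 (964), Lck-off replicate 4 (968) and WT replicate 3 (984). The cause was not tested. Signal over background limits Irf4, Irf5 and the second Irf1 probe.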
